A study of Mus musculus with 8 samples.

Results

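The genes described here are 32 genes of DNA replication and mitosis. They were read in a cell fraction enriched for macrophages from mouse inguinal fat pads after imiquimod cream or control cream. Its RNA also held markers of other cells, given below. The 32 genes were chosen by name. The replication set holds 10 genes (Mcm2, Mcm3, Mcm4, Mcm5, Mcm6, Mcm7, Pcna, Rrm2, Tyms and Tk1) and the mitotic set the other 22. All 32 have a row among the 56748 rows of the deposited table, and all 32 were among the 16780 genes that passed a filter on low counts and were tested.

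In the Aldara group, wild-type (WT) female mice had about 62.5 mg of Aldara cream spread on shaved back skin close to the tail on 3 consecutive days, and the active agent of that cream is imiquimod (5%), a Toll-like receptor 7 agonist. Vehicle mice, also WT females, had an equal volume of a cream without imiquimod, made of Boots Aqueous Cream/10% Vaseline Lanette Cream, and fat pads were taken 24 h after the last dose. Each group has 4 libraries, each made from a pool of 6 fat pads (about 30000 cells) collected with F4/80 beads, from preparations with over 90% of cells positive for F4/80 and CD64. The sources used here state neither strain nor age. They also leave unsaid whether the pools share animals, and each p-value below reflects only how much the pools differ.

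Cells copy their DNA in S phase and divide in M phase. Before S phase the Mcm2 to Mcm7 proteins are loaded on DNA as the replicative helicase, and nucleotide synthesis is turned up. Cyclin A and cyclin B then activate Cdk1, the spindle forms, and the anaphase-promoting complex destroys cyclins and securin so that chromosomes separate. In growing cells the E2F factors drive the genes of S phase. The DREAM, B-Myb and Foxm1 complexes act on mitotic genes through CHR elements, often beside CCAAT boxes bound by NF-Y. Tissue macrophages can divide in place, and so can epithelial and stromal cells, so the RNA of these genes in a mixed sample does not name the dividing cell.

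RefSeq promoters on build GRCm38.p6, from 250 bases before to 50 bases after the annotated start, were matched for 26 of the 32 genes, and 6 genes had no entry. They were searched on both strands for a CHR word (TTTGAA, or its form TTCGAA), for CCAAT, and for an E2F word (TTTGGCG, with the variants TTTCCCG, then also TTTCGCG). A CHR word stood in 13 of the 17 mitotic promoters (76.5%), in 2 of the 10 promoters of 9 replication genes (20%) and in 19.2% of all 32851 promoters. CCAAT stood in 15 of 17 mitotic (88.2%), 8 of 10 replication (80%) and 37.4% of all promoters. At least 2 copies were found in 64.7% of the mitotic promoters, 40% of the replication promoters and 11.7% of all. An E2F word stood in 3 mitotic promoters (17.6%), 4 replication promoters (40%) and 5.58% of all promoters. The words can overlap one another, and a match is a description of letters, not a bound site. The 150 bases before the start are printed for 4 mitotic genes that were high in the same libraries and for 2 helicase genes, 1 that fell and 1 that did not pass the test, with matched words in capitals. They are Mki67 at chr7:135716380-135716529 (- strand), Top2a at chr11:99024190-99024339 (- strand), Cdk1 at chr10:69352913-69353062 (- strand), Ube2c at chr2:164769779-164769928 (+ strand), Mcm2 at chr6:88898781-88898930 (- strand) and Mcm6 at chr1:128359706-128359855 (- strand).
Mki67: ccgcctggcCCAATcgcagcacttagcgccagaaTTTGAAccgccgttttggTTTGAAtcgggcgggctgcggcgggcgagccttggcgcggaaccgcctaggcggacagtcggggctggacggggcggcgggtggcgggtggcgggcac
Top2a: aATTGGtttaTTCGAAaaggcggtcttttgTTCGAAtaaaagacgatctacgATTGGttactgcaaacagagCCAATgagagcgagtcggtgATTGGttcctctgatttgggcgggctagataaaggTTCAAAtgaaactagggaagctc
Cdk1: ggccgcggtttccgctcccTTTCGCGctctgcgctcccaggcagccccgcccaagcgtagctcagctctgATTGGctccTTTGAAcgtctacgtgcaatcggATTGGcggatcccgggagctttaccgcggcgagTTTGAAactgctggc
Ube2c: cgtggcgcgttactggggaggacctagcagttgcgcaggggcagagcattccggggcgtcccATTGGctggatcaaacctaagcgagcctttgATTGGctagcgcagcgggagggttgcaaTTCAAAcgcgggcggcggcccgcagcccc
Mcm2: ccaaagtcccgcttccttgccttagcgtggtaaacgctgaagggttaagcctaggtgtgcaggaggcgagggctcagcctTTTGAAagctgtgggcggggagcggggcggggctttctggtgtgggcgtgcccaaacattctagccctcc
Mcm6: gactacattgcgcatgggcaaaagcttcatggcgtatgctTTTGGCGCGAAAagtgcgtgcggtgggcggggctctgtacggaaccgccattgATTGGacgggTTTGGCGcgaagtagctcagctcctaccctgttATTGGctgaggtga
In these stretches Mki67, Top2a, Cdk1 and Ube2c each hold a CHR word and CCAAT, and Cdk1 also holds an E2F word, whereas Mcm6 holds E2F words and CCAAT and no CHR word. Mcm2 holds 1 CHR word and no CCAAT in the printed stretch. These words did not go with the library pattern in every gene. Nusap1 and Birc5, also high in Vehicle replicates 3 and 4, held neither a CHR word nor CCAAT in the searched window, whereas Aurka, which did not share that pattern, held 1 CHR word and 2 CCAAT.

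Library totals ran from 19537607 to 34471508 counts, and levels are given in CPM, the counts scaled to a common library total with TMM factors, and the largest totals were those of Vehicle replicates 3 and 4. Markers of macrophages were present in all 8 libraries, with a summed level of 981 to 1910 CPM in Vehicle and 2470 to 6710 CPM in Aldara, and 6 of the 10 rose. Adgre1, which encodes F4/80, had 53.4 to 96.8 CPM in Vehicle and 429 to 1410 CPM in Aldara, and Csf1r had 180 to 346 and 321 to 732 CPM. Markers of luminal epithelium summed to 14000 to 18600 CPM in Vehicle and 13000 to 16600 CPM in Aldara (0 of 8 called), above the macrophage markers in each library, although flow cytometry had given over 90% F4/80 and CD64 positive cells. Epcam had 1410 to 1520 and 1240 to 1480 CPM and Krt8 3140 to 5270 and 3510 to 4760 CPM. Of the fibroblast markers 4 of 6 fell (130 to 338 against 49.9 to 99.9 CPM). Basal and skin epithelium markers summed to 870 to 1150 CPM in Vehicle and 651 to 1060 CPM in Aldara, and 1 of 7 fell. Endothelial markers summed to 209 to 317 and 181 to 335 CPM, with none called. Mast cell markers summed to 230 to 312 and 185 to 360 CPM, with 1 tested gene of 4, which did not pass. Among markers of T cells 3 of 8 were tested and none of these passed, at a summed 3.14 to 5.7 and 3.75 to 7 CPM, and Cd3e had 3 counts over the Vehicle and 1 over the Aldara libraries. B cell and plasma cell markers summed to 0.621 to 2.06 and 3.76 to 9.47 CPM, with 1 tested gene of 6, which rose, and Cd79a had 12 and 19 counts. The part of any of these cell types in the levels below was not tested. In such bulk samples, fewer dividing cells and less RNA per dividing cell cannot be told apart.

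Most cell cycle genes were lower after Aldara, but few passed the test. Aldara was compared with Vehicle, without pairing of libraries, by edgeR's quasi-likelihood test over all 16780 genes with Benjamini-Hochberg adjustment and a threshold of 0.05. The helicase genes Mcm2 and Mcm7 fell and none of the 32 rose, so 6.25% fell, beside 3.86% of all genes tested that fell (647) and 6.98% that rose (1171). With upper-quartile factors the split over all genes was 990 fallen and 979 risen. The log2 fold change (Aldara minus Vehicle) was negative for 30 of 32 genes (93.8%), including all 22 mitotic genes, beside 49.1% of all genes tested. Its median was -0.43 over the replication genes and -0.96 over the mitotic genes, against 0.01 over all genes. The genes share libraries and are not replicates of one another. The mean log2 CPM of the mitotic genes was 3.5 and 3.39 in Vehicle replicates 3 and 4. In Vehicle replicates 1 and 2 it was 1.83 and 1.76, within the Aldara range of 1.15 to 2.35. An unadjusted p under 0.05 was reached by 13 of the 32 genes on the lower side and 0 on the higher side, beside 11.7% and 14.4% of all genes. The groups did not overlap for Mcm2 and Mcm7 only, 6.25% of the genes, beside 7.79% of all genes tested with Aldara lower.

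The fit with the replicate number as a block gave a different count. The numbers paired the libraries by the rule used here, although the labels do not say what a number stands for. With the block 9 of 32 genes fell (28.1%) and 0 rose, beside 6.14% of all genes that fell and 9.21% that rose. Besides Mcm2 (adjusted p = 0.00259) and Mcm7 (0.0117) these were Mcm5 (0.0202), Rrm2 (0.0493), Mki67 (0.0481), Birc5 (0.0321), Cenpf (0.0275), Ube2c (0.018) and Nusap1 (0.048). Over the 15 alternatives tried, the adjusted p of these last 7 genes ranged from 0.0137 to 0.605. DESeq2 without the block called 7 of the 32 genes as fallen, Mcm2, Mcm7, Rrm2, Ccna2, Birc5, Cenpf and Nusap1. Over all 16780 genes DESeq2 called 1192 as fallen and 1532 as risen, beside 647 and 1171 in the main fit.

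**Figure D1:**
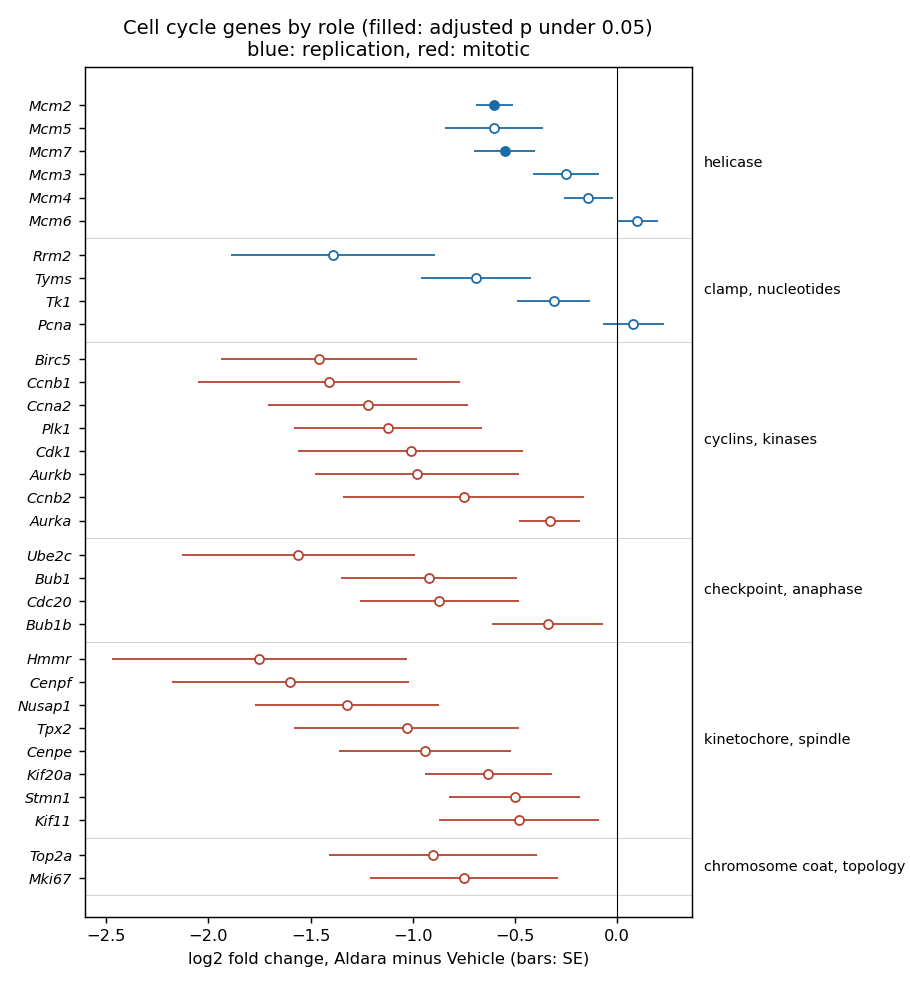
Log2 fold change of each of the 32 genes (horizontal axis, Aldara minus Vehicle, bars are the SE of the edgeR fit, 4 libraries per group), grouped by role, with blue for replication and red for mitotic genes. Filled points passed the adjusted p of 0.05 and are Mcm2 and Mcm7, and all 22 mitotic genes lie left of 0.

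Of the 6 helicase subunits, Mcm2 and Mcm7 fell and the other 4 did not pass the test. Mcm2 stood at 38.3, 36.9, 44.7 and 44.9 CPM across Vehicle replicates 1 to 4 and at 26.3, 27.5, 27.8 and 27.2 CPM across Aldara replicates 1 to 4. Every Aldara library was below every Vehicle library, and the Aldara libraries lay within 1.05-fold of each other. Mcm2 fell from 41.2 ± 4.17 to 27.2 ± 0.625 CPM (SD, n = 4 each), a log2 fold change of -0.60 (SE 0.09, edgeR adjusted p = 0.00402). Its call held under all 15 alternatives (highest adjusted p = 0.0137).

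Mcm7 stood at 29.2, 36.1, 50 and 33.9 CPM across Vehicle replicates 1 to 4 and at 23.2, 27.1, 27.3 and 24.3 CPM across Aldara replicates 1 to 4. The groups did not overlap, and Vehicle replicate 3 stood highest. Mcm7 fell by 0.55 on the log2 scale (SE 0.15, adjusted p = 0.0398). It no longer passed on leaving out Vehicle replicate 2 (adjusted p = 0.0764), 3 (0.0571) or 4 (0.0572), Aldara replicate 1 (0.0745), 2 (0.0766), 3 (0.0767) or 4 (0.0907), or with limma voom (0.0564), with a range of 0.0105 to 0.0907 over all alternatives. Exons of Mcm7 share 12.6% of their bases with other genes, Ap4m1 and Cops6 on the opposite strand among them, and the library kit does not mark strand.

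Of these 4, Mcm5 had 19.9 ± 6.92 CPM in Vehicle and 13.1 ± 2.84 CPM in Aldara (log2 fold change -0.60, SE 0.24, adjusted p = 0.146). Mcm3 and Mcm4 had log2 fold changes of -0.25 and -0.14. Mcm6, the most abundant subunit per length at 18.4 CPM per kb of exon in Vehicle, had 85.7 ± 11.2 CPM in Vehicle and 92.0 ± 6.39 CPM in Aldara (log2 fold change 0.10, SE 0.10, adjusted p = 0.587). The value of Mcm6 was positive under all 15 alternatives, none of which called it. Log2 fold changes of the 6 subunits ran from -0.60 to 0.10, and differences between subunits were not tested.

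Pcna, the sliding clamp that holds polymerases on DNA, was the most abundant of the 32 per length (22.4 CPM per kb in Vehicle, 23.8 in Aldara). It stood at 52.9, 44.8, 69.0 and 48.4 CPM across Vehicle replicates 1 to 4 and at 45.8, 53.6, 59.7 and 69.3 CPM across Aldara replicates 1 to 4. The groups overlapped throughout, and no change was detected (log2 fold change 0.08, SE 0.15, adjusted p = 0.789), with a value of -0.04 without Aldara replicate 4. Processed copies of Pcna are annotated and may take some of its reads.

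Among the genes of nucleotide supply, Rrm2, the small subunit of ribonucleotide reductase, had the largest difference of the replication set. Rrm2 stood at 4.92, 2.92, 14.8 and 6.26 CPM across Vehicle replicates 1 to 4 and at 1.45, 2.59, 3.13 and 4.04 CPM across Aldara replicates 1 to 4. Vehicle replicate 3 stood above all others, and Vehicle replicate 2 lay within the Aldara range. The log2 fold change came to -1.39 (SE 0.50, adjusted p = 0.111) and came to -0.76 at the smallest when 1 library was left out. Tyms, which makes thymidylate, stood at 7.74, 5.8, 12.1 and 11 CPM across Vehicle replicates 1 to 4 and at 8.50, 5.34, 4.78 and 4.26 CPM across Aldara replicates 1 to 4, with Aldara replicate 1 inside the Vehicle range. Tyms had a log2 fold change of -0.69 (SE 0.27, adjusted p = 0.139, and 0.0348 without Aldara replicate 1, with 0.29 the highest of all alternatives). Tk1, the thymidine salvage kinase, had a log2 fold change of -0.31 (SE 0.18, adjusted p = 0.312).

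The 8 genes grouped as mitotic cyclins and kinases included Birc5, the survivin subunit of the chromosomal passenger complex, which is neither. Log2 fold changes ran from -0.33 for Aurka, a centrosomal kinase, to -1.41 for Ccnb1 and -1.46 for Birc5. Birc5 stood at 1.88, 1.74, 7.43 and 5.01 CPM across Vehicle replicates 1 to 4 and at 0.982, 1.39, 1.44 and 2.13 CPM across Aldara replicates 1 to 4. High values were those of Vehicle replicates 3 and 4, whereas Vehicle replicates 1 and 2 lay below Aldara replicate 4. The adjusted p of Birc5 was 0.0811 (SE 0.48), and 0.0473 without Vehicle replicate 2, with a range of 0.0137 to 0.197 over all alternatives. Ccna2, cyclin A2, stood at 2.91, 2.33, 10.7 and 7.58 CPM across Vehicle replicates 1 to 4 and at 1.45, 2.87, 2.76 and 3.14 CPM across Aldara replicates 1 to 4 (log2 fold change -1.22, SE 0.49, adjusted p = 0.148). Its groups overlapped at the level of Vehicle replicates 1 and 2, and 12.5% of its exon bases are shared with Exosc9 on the opposite strand.

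Cdk1, the kinase that starts mitosis, had 6.74 ± 4.71 CPM in Vehicle and 3.39 ± 1.42 CPM in Aldara (adjusted p = 0.292). Its cyclins Ccnb1 and Ccnb2 had log2 fold changes of -1.41 and -0.75 (adjusted p = 0.201 and 0.481). The kinases Plk1 and Aurkb had -1.12 and -0.98 (adjusted p = 0.156 and 0.253). Aurka differed from the rest of this role in its small spread, with 15.6 to 27.2 CPM in Vehicle and 16.4 to 18.5 CPM in Aldara, and its adjusted p was 0.193 (0.0499 without Vehicle replicate 1, with 0.415 the highest of all alternatives).

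Of the genes of the spindle checkpoint and anaphase, Ube2c, the ubiquitin-conjugating enzyme of the anaphase-promoting complex, stood at 3.28, 2.06, 9.63 and 10.4 CPM across Vehicle replicates 1 to 4 and at 0.811, 1.95, 2.51 and 3.46 CPM across Aldara replicates 1 to 4. The other 6 libraries overlapped, below Vehicle replicates 3 and 4. Ube2c had a log2 fold change of -1.56 (SE 0.57, adjusted p = 0.12), and 22.8% of its exon bases overlap Tnnc2 on the opposite strand. Cdc20, the activator of that complex, stood at 5.06, 3.43, 11.3 and 12.9 CPM across Vehicle replicates 1 to 4 and at 3.54, 5.38, 4.41 and 4.74 CPM across Aldara replicates 1 to 4, with the same 2 libraries high (log2 fold change -0.87, SE 0.39, adjusted p = 0.19). The checkpoint kinase Bub1 and its relative Bub1b had log2 fold changes of -0.92 and -0.34 (adjusted p = 0.205 and 0.491).

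The 8 kinetochore and spindle genes held the most negative value of all, that of Hmmr, a microtubule-associated hyaluronan receptor, at -1.75 (SE 0.72, adjusted p = 0.159). Nusap1, a spindle protein, stood at 2.20, 2.10, 7.99 and 7.42 CPM across Vehicle replicates 1 to 4 and at 1.75, 1.75, 2.35 and 2.13 CPM across Aldara replicates 1 to 4. The 4 Aldara libraries and Vehicle replicates 1 and 2 lay together, and Vehicle replicates 3 and 4 were higher. The log2 fold change came to -1.32 (SE 0.45, adjusted p = 0.0899), with calls without Vehicle replicate 1 (0.0467) or 2 (0.0435) and a range of 0.0172 to 0.221 over all alternatives. Cenpf, a large kinetochore protein, stood at 1.88, 1.78, 6.72 and 8.77 CPM across Vehicle replicates 1 to 4 and at 0.726, 1.75, 1.48 and 2.50 CPM across Aldara replicates 1 to 4 (log2 fold change -1.60, SE 0.58, adjusted p = 0.116). Vehicle replicates 1 and 2 again lay inside the Aldara range.

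The kinetochore motor Cenpe had a log2 fold change of -0.94, the spindle motors Kif11 and Kif20a -0.48 and -0.63, and the spindle assembly factor Tpx2 -1.03, with adjusted p from 0.192 to 0.497. Of the exon bases of Kif20a, 29.3% are shared with Cdc23 on the opposite strand. Stmn1, which destabilises microtubules and is also made outside mitosis, was the most abundant mitotic gene per length (14.1 CPM per kb in Vehicle) and had a log2 fold change of -0.50 (adjusted p = 0.387). Cenpf was the least abundant per length, at 0.31 CPM per kb in Vehicle.

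Mki67, which coats mitotic chromosomes and is the usual proliferation marker, stood at 14.0, 14.6, 40.8 and 41.5 CPM across Vehicle replicates 1 to 4 and at 7.47, 15.3, 17.5 and 26.5 CPM across Aldara replicates 1 to 4. The highest of all 8 libraries were Vehicle replicates 3 and 4, Aldara replicate 1 was the lowest, and Vehicle replicates 1 and 2 lay between. The log2 fold change came to -0.75 (SE 0.46, adjusted p = 0.357). Top2a, the topoisomerase that untangles chromosomes, stood at 11.2, 11.6, 44.1 and 41.2 CPM across Vehicle replicates 1 to 4 and at 8.03, 12.3, 15 and 23.2 CPM across Aldara replicates 1 to 4, again with Vehicle replicates 3 and 4 the 2 highest and Aldara replicate 1 the lowest (log2 fold change -0.90, SE 0.51, adjusted p = 0.311).

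**Figure D2:**
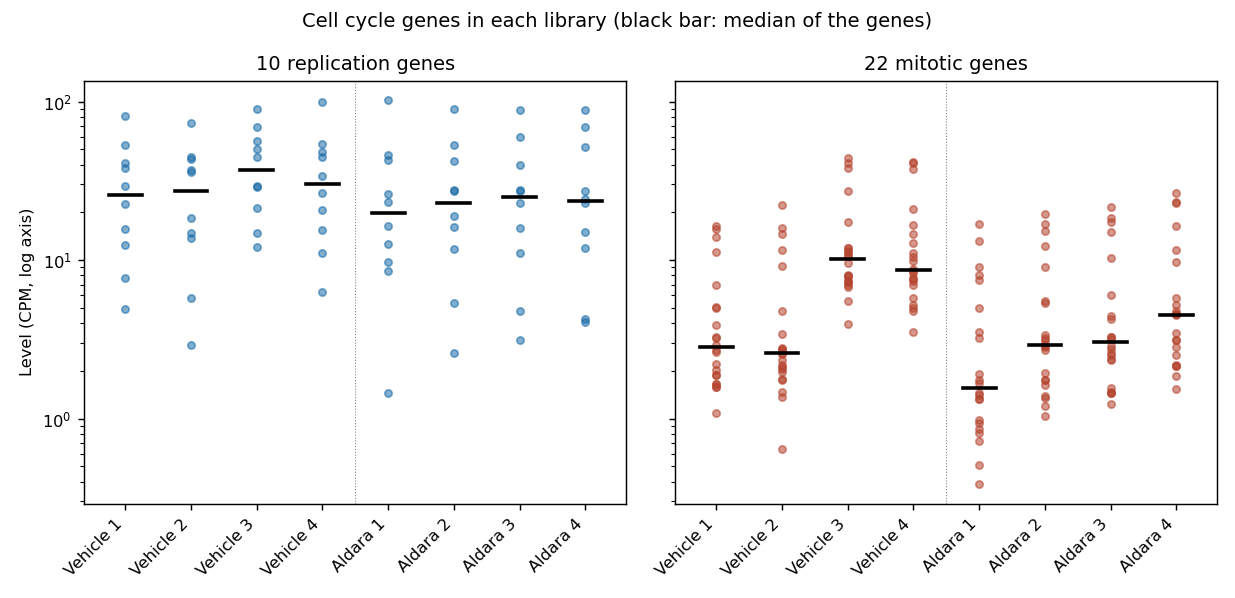
Level of each gene in each library (CPM, log axis), with replication genes on the left and mitotic genes on the right, 1 point per gene and a black bar at the median of the genes. The mitotic genes stand highest in Vehicle 3 and Vehicle 4, where their levels sum to 314 and 296 CPM, against 108 and 113 CPM in Vehicle 1 and Vehicle 2.

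Within Vehicle the mitotic genes varied far more than most genes. The SD of log2 CPM over the 4 Vehicle libraries had a median of 1.03 over the 22 mitotic genes (0.33 to 1.56) and 0.30 over the 10 replication genes (0.15 to 0.96), against 0.20 over all genes and 0.24 over the 5895 genes within the same range of mean level. It exceeded 1 for 13 of 22 mitotic genes (59.1%), for 0 replication genes and for 1.43% of all genes. The highest Vehicle library exceeded the lowest by a median of 4.06-fold over the mitotic genes, with Hmmr at 12.4-fold and Aurka at 1.75-fold, and by 1.64-fold over the replication genes, with Rrm2 at 5.05-fold and Mcm2 at 1.22-fold. Aldara libraries varied less, with a median SD of 0.49 and 0.23 for the mitotic and replication genes. For all 32 genes the SD was larger in Vehicle than in Aldara, beside 49% of all genes tested. The highest Aldara library exceeded the lowest by a median of 2.17-fold over the mitotic and 1.43-fold over the replication genes. By that measure Mki67 (3.54-fold in Aldara, 2.96-fold in Vehicle) and Ccnb1 (6.13-fold and 4.96-fold) varied more in Aldara, unlike the other genes. No test was made of this difference in spread.

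**Figure D3:**
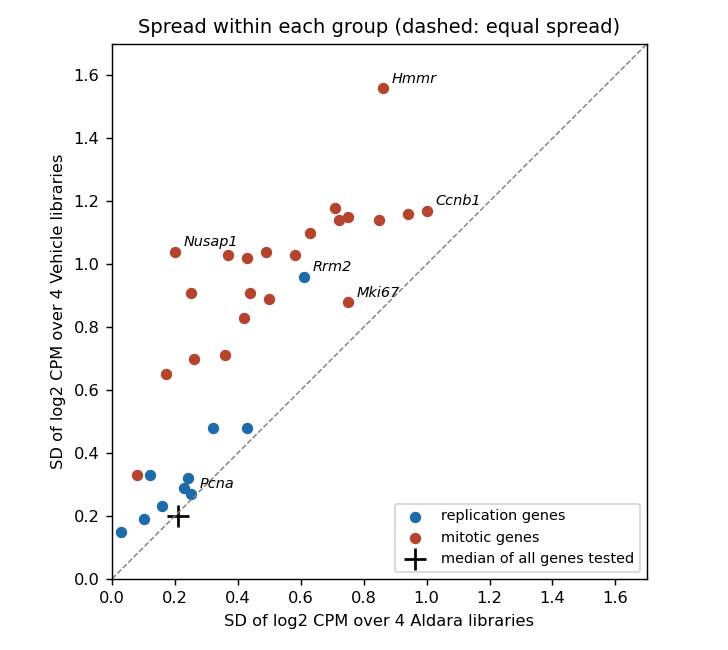
SD of log2 CPM over the 4 Aldara libraries (horizontal) and the 4 Vehicle libraries (vertical), 1 point per gene, blue for replication and red for mitotic genes, with a cross at the median of all genes tested. All 32 points lie above the dashed line of equal spread, with Hmmr the highest at 1.56.

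The same 2 libraries were high for nearly every gene. Vehicle replicates 3 and 4 were the highest pair of the Vehicle group for 21 of 22 mitotic genes, Aurka being the exception, and for 8 of 10 replication genes, the exceptions being Mcm7 and Pcna. Over all genes tested this held for 18.2%. For 19 of the 22 mitotic genes the lower of these 2 libraries was at least 2-fold above the higher of the other 2, which held for 0 replication genes and for 0.626% of all genes tested. In Aldara, replicate 1 was the lowest for 19 of the 22 mitotic genes, 6 of the 10 replication genes and 24.1% of all genes tested. Aldara replicate 4 was the highest for 17 mitotic genes, 4 replication genes and 27.9% of all genes. This pattern was described after the values were seen. Vehicle replicates 3 and 4 also hold the largest totals, whereas Aldara replicate 4 holds the smallest of all. With every library thinned to the smallest total, the median SD within Vehicle was again 1.03 for the mitotic genes. CPM is already scaled to the library total, so thinning changes little but sampling noise. Other differences between the libraries that may go with their totals were not tested. Summed macrophage markers were 981, 1400, 1910 and 1460 CPM in Vehicle replicates 1 to 4, summed luminal markers 18600, 14800, 14000 and 17300 CPM, and their part in the pattern was not tested.

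Replication and mitotic genes were set against each other by their mean log2 CPM per library. The mitotic mean was 1.83, 1.76, 3.5 and 3.39 in Vehicle and 1.15, 1.84, 1.98 and 2.35 in Aldara. The replication mean was 4.50, 4.36, 5.12 and 4.78 in Vehicle and 4.16, 4.29, 4.32 and 4.39 in Aldara. Vehicle replicates 1 and 2 thus lay within the Aldara range for the mitotic mean, and only Vehicle replicate 2 did for the replication mean. Within replicate numbers 1 to 4, Aldara minus Vehicle was -0.33, -0.07, -0.80 and -0.39 for the replication mean, lower in 4 of 4 pairs. It was -0.68, 0.09, -1.52 and -1.04 for the mitotic mean, lower in 3 of 4 pairs. From Vehicle to Aldara the mitotic mean went from 2.62 ± 0.96 to 1.83 ± 0.50 and the replication mean from 4.69 ± 0.34 to 4.29 ± 0.09 (SD, n = 4 each). The replication mean exceeded the mitotic mean by 2.67, 2.60, 1.62 and 1.39 in Vehicle and by 3.01, 2.44, 2.34 and 2.03 in Aldara. That gap was smallest in the 2 Vehicle libraries with high mitotic genes, and the 2 groups overlapped (2.07 ± 0.66 and 2.46 ± 0.41, a difference of 0.39). The difference came to 0.16 without Vehicle replicate 4, 0.24 without Vehicle replicate 3, 0.20 without Aldara replicate 1 and 0.59 without Vehicle replicate 1. The replication median of -0.43 came to -0.25 without Vehicle replicate 3 and the mitotic median of -0.96 to -0.64. Means over chosen genes carry no p here.

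**Figure D4:**
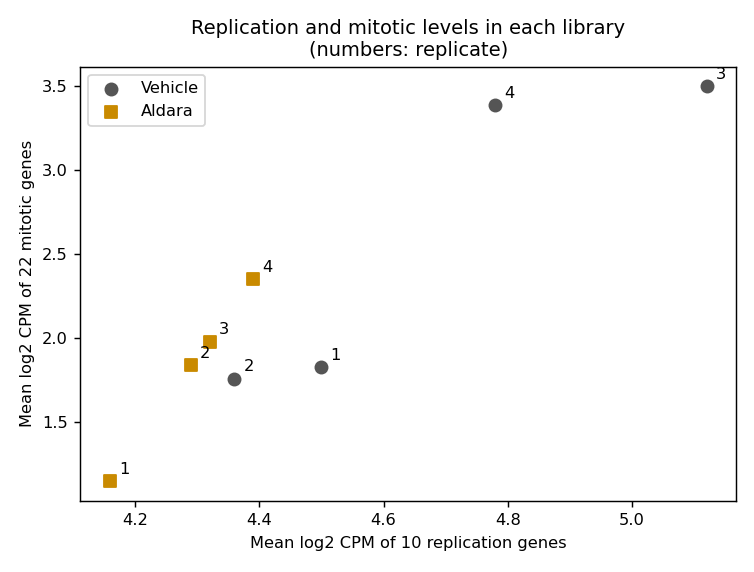
Mean log2 CPM of the 10 replication genes (horizontal) and of the 22 mitotic genes (vertical) in each library, with circles for Vehicle, squares for Aldara and the replicate number beside each. Vehicle 3 and Vehicle 4 stand apart with mitotic means of 3.5 and 3.39, and the other 6 libraries lie between 1.15 and 2.35.

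Genes of the cell cycle outside the 32 were taken from 6 further lists. Of 43 tested other mitotic factors 3 fell and 0 rose (6.98% against 3.86% of all genes), with a median log2 fold change of -0.71. With the replicate block 10 fell (23.3%) and 1 rose, beside 6.14% and 9.21% of all genes. The microtubule depolymerase Kif2c fell from 10.0 ± 1.97 to 3.78 ± 0.638 CPM (SD, n = 4, log2 fold change -1.41, SE 0.19, edgeR adjusted p = 0.00244). Spc25, a subunit of the Ndc80 kinetochore complex, fell from 8.09 ± 3.22 to 2.87 ± 0.697 CPM (-1.50, SE 0.28, adjusted p = 0.00876). Anln, the cytokinesis scaffold anillin, fell by 0.92 (SE 0.20, adjusted p = 0.0177), which no longer passed on leaving out Aldara replicate 2 (0.0594) or 3 (0.0579). In all 3 genes the Aldara libraries lay below the Vehicle libraries, which held for 5 of the 43 genes (11.6%) and for 7.79% of all genes tested. For 39 of the 43 genes the highest Vehicle pair was again replicates 3 and 4.

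Of 38 other replication factors 1 fell and 0 rose (2.63% against 3.86% of all genes), with a median of -0.23. With the block 3 fell (7.89% against 6.14% of all genes). Dut, which clears dUTP, fell by 0.64 (SE 0.16, adjusted p = 0.0259), which no longer passed on leaving out Vehicle replicate 1, 3 or 4, or else Aldara replicate 2, 3 or 4 (up to adjusted p = 0.0668). For 23 of these 38 genes (60.5%) the highest pair was Vehicle replicates 3 and 4.

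Among 22 regulators of the passage from G1 to S phase 2 fell and 0 rose (9.09% against 3.86% of all genes), with a median of -0.20. With the block 3 fell (13.6%) and 2 rose, beside 6.14% and 9.21% of all genes. Ccnd1, cyclin D1, which couples growth signals to the cycle, stood at 249, 208, 173 and 215 CPM across Vehicle replicates 1 to 4 and at 143, 113, 104 and 92.2 CPM across Aldara replicates 1 to 4. Every Aldara library was below every Vehicle library, and here Vehicle replicate 1 was the highest and replicate 3 the lowest of its group. Ccnd1 fell by 0.90 on the log2 scale (SE 0.15, adjusted p = 0.00524), a call that held under all 15 alternatives (highest adjusted p = 0.02). Tfdp1, the partner of E2F factors, fell by 0.30 (SE 0.08, adjusted p = 0.0408), which no longer passed on leaving out Vehicle replicate 1, 3 or 4, or else Aldara replicate 1, 2 or 3 (up to adjusted p = 0.107) and with no filter on low counts (0.0688).

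Of 6 tested genes of the MuvB and Foxm1 list 1 fell (16.7% against 3.86% of all genes), the histone-binding Rbbp4 (-0.29, SE 0.08, adjusted p = 0.0479). With the block Rbbp4 alone fell (16.7% against 6.14% of all genes). Rbbp4 no longer passed on leaving out any 1 of the 8 libraries (0.0696 to 0.115) and with no filter (0.0701). Foxm1, an activator of mitotic genes, had 5.48 ± 2.42 and 4.39 ± 1.32 CPM (adjusted p = 0.577). Of 7 CDK inhibitors 1 fell (14.3% against 3.86% of all genes), Cdkn2d (-0.48, SE 0.13, adjusted p = 0.0336). With the block Cdkn2d alone fell (14.3% against 6.14% of all genes). Cdkn2d no longer passed on leaving out Vehicle replicate 1, 2 or 3, or else Aldara replicate 2 or 4 (up to adjusted p = 0.0951) and with thinned counts (0.0561). Cdkn1a, the inhibitor p21, had 143 ± 22.7 and 151 ± 43.2 CPM (log2 fold change 0.08, adjusted p = 0.847), with a value below 0 in 1 of the 15 alternatives.

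Of 12 targets of p53 2 fell and 0 rose (16.7% against 3.86% of all genes). With the block 3 fell (25% against 6.14% of all genes) and 0 rose. Gadd45a, a stress-response gene, fell from 73.4 ± 11.8 to 43.3 ± 3.93 CPM (-0.76, SE 0.12, adjusted p = 0.00416), and that call held under all 15 alternatives. Zmat3, a zinc-finger protein, fell by 0.72 (SE 0.19, adjusted p = 0.0382), which no longer passed on leaving out Vehicle replicate 2 or 4, or else Aldara replicate 2, 3 or 4 (up to adjusted p = 0.105), with limma voom (0.0528) and with no filter (0.0655). Vehicle replicates 3 and 4 were the highest pair for 10 of the 22 regulators of G1 to S phase (45.5%), 3 of the 6 genes of the MuvB and Foxm1 list, 1 of the 12 p53 targets (8.33%) and 0 of the 7 CDK inhibitors, beside 18.2% of all genes tested. Differences between lists were not tested.

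**Figure D5:**
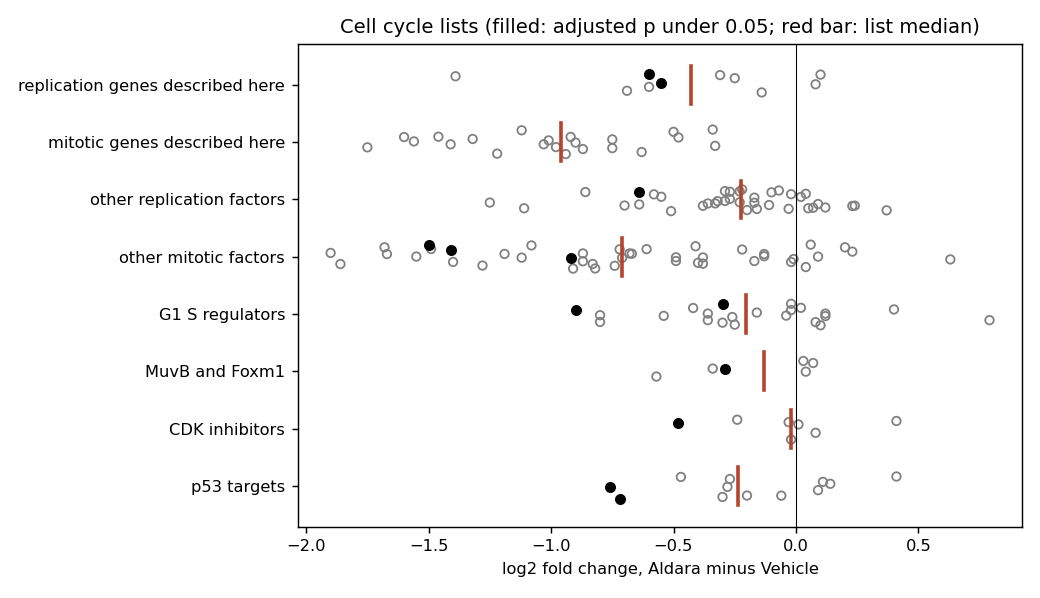
Log2 fold change (Aldara minus Vehicle) of each tested gene in the 2 sets described here and in 6 further lists, with filled points for an adjusted p under 0.05 and a red bar at the median of each list. The medians of the mitotic lists lie at -0.96 and -0.71, those of the other lists between -0.43 and -0.02.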

How the data were processed

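Poly-A RNA of 8 libraries (4 Aldara, 4 Vehicle) was measured. The authors deposited whole-number read counts per gene, not normalised. The tools named per the submitters' processing notes are DESeq2, featureCounts 1.5.0-p3 and HISAT2 2.0.5, and the build is mm10. The roles of these tools, counting options and annotation are not stated in the sources used here. Identifiers were matched to symbols by GENCODE M21 (52073 of 56748), and exon lengths and overlaps came from it. Some identifiers are more recent than M21, so lengths are approximate and its coordinates are not printed.

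Counts were tested with edgeR 4.0.16 in R 4.3.3 (filterByExpr, TMM, robust quasi-likelihood F test). SE came from the F statistic, and log2 CPM used a prior count of 2. DESeq2 1.42.0, limma 3.58.1 (voom), other scalings, no filter, a replicate block and leaving out each library were alternatives, and thinning to the smallest library was added after seeing the data. The procedure was tested on simulated counts, drawn for each gene separately with the spread typical of its level. Such counts do not cover genes that vary together, or more than their level predicts, as the mitotic genes did. Pairs of libraries within a group differed beyond sampling noise (lowest chi-square per degree of freedom 20.2).

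Replicate numbers shared by the groups were checked. Deviations from the group means correlated across genes at 0.108 to 0.228 between same-numbered libraries, over 0.1 in each of 4 pairs, so the numbers were taken as pairing the libraries. This rests on the data alone. The main fit does not use the pairing, and the calls of the block fit rest on a pairing read from the same counts.

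The members and lists were chosen with earlier results of these data known. All 32 members are accounted for. Values in every library are given for members that passed, for Mki67, Top2a and Pcna, and for the 2 of smallest p in each role. From other lists up to 4 genes that passed are named, or the 1 of smallest p, with Ccnd1, Cdkn1a and Foxm1 always.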

Additional observations from a re-analysis of the deposited data

Results flagged for a closer look

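In 68 checks of the 4 libraries of a group, 3 showed a library that stood far from the others by Dixon's gap ratio past its critical value, where chance gives about 1 in 20. Mcm6 in Aldara had 1 library at 102 CPM and the others at 88.4 to 89.4 CPM (ratio 0.926). Cenpe in Aldara had 1 library at 1.32 CPM and the others at 2.59 to 2.82 CPM (ratio 0.848). Kif20a in Aldara had 1 library at 4.58 CPM and the others at 3.15 to 3.2 CPM (ratio 0.962). The high mitotic genes of Vehicle replicates 3 and 4 are not of this kind, since 2 libraries share them.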

How the results depend on the processing

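The log2 fold change of all 22 mitotic genes was negative under the 15 alternatives tried. Each alternative kept Vehicle replicate 3, Vehicle replicate 4 or both, whose mitotic means were 3.5 and 3.39. The mitotic means of Vehicle replicates 1 and 2, 1.83 and 1.76, lay within the Aldara range of 1.15 to 2.35. The sign with both high Vehicle libraries left out was not tested. The number of members that fell, 2, was 7 with DESeq2, 1 with limma voom and 9 with the replicate block. It ranged from 1 to 4 when 1 library was left out, with 4 without Vehicle replicate 1, 3 without Vehicle replicate 2, and 1 on leaving out Vehicle replicate 3 or 4, or any Aldara replicate but the first. No member rose under any of these. Other mitotic factors that fell, 3, numbered 5 with upper-quartile factors, 9 with DESeq2 and 10 with the replicate block (2 to 7 with 1 library left out), and 1 rose with the block. Other replication factors that fell, 1, numbered 3 with DESeq2 and 3 with the block (0 to 3 with 1 library left out). With the block 2 regulators of G1 to S phase rose (0 to 1 with 1 library left out, where 1 to 2 fell). Of p53 targets 1 fell with limma voom and 1 with no filter on low counts (1 to 2 with 1 library left out). The call in the MuvB list went to 0 with no filter and to 0 without each library. That among CDK inhibitors went to 0 with thinned counts (0 to 1 with 1 library left out). Over all genes, 647 fell, and 990 did with upper-quartile factors, 1192 with DESeq2 and 1030 with the block. With 1 library left out 323 to 664 fell and 629 to 1405 rose, where 1171 rose with all. The block changed the call of Mcm5, Rrm2, Mki67, Birc5, Cenpf, Ube2c and Nusap1 among the 32 genes and of no other member. The median of all genes moved by less than 0.1 (log2) under each scaling.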

Other observations

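Of the other mitotic factors, Cenpa, the histone of centromeres, was 1 of 6 tested genes of its list with a positive log2 fold change and was picked out after its values were seen. Cenpa stood at 10.2, 12.7, 23.2 and 22.3 CPM across Vehicle replicates 1 to 4 and at 18.1, 22.7, 26.1 and 39.6 CPM across Aldara replicates 1 to 4. It shared the high levels of Vehicle replicates 3 and 4 and of Aldara replicate 4, but its log2 fold change was 0.63 (SE 0.31, edgeR adjusted p = 0.244, and 0.0119 with the replicate block). E2f1, a driver of S phase genes, and Uhrf1 below were also picked after their values were seen. E2f1 stood at 5.44, 5.8, 9.38 and 6.13 CPM across Vehicle replicates 1 to 4 and at 6.58, 8.57, 16.4 and 15.1 CPM across Aldara replicates 1 to 4 (log2 fold change 0.79, SE 0.30, adjusted p = 0.127, and 0.0242 with the block). In Aldara, E2f1 and the summed macrophage markers were both highest in replicates 3 and 4, at 6710 and 6390 CPM for the markers, and the part of macrophage RNA in E2f1 was not tested. Uhrf1, which maintains DNA methylation after replication, stood at 9.94, 9, 24.5 and 14.2 CPM across Vehicle replicates 1 to 4 and at 3.89, 5.94, 7 and 10.1 CPM across Aldara replicates 1 to 4 (log2 fold change -1.11, SE 0.37, adjusted p = 0.0897, and 0.0162 with the block).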
